A study of Mus musculus with 4 samples.

Results

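H3K4 methyltransferase complex genes encode the enzymes that methylate lysine 4 of histone H3, and the subunits that all of these enzymes share. The genes were chosen by name, as the 6 SET1 and MLL enzymes (Setd1a, Setd1b, Kmt2a, Kmt2b, Kmt2c and Kmt2d) and the 4 shared core subunits (Wdr5, Rbbp5, Ash2l and Dpy30). All 10 had a row among the 30049 Ensembl genes of the deposited table. RNA was measured in 4 libraries of wild-type mouse embryos at the 2-cell stage, which came from crosses of BDF1 mice (first-generation hybrids of C57BL/6 and DBA/2) with each other. Zygotes were collected from superovulated females 18 h after hCG (human chorionic gonadotropin) and kept for 24 h in KSOM, a culture medium made for the preimplantation stages. The 2 control libraries came from embryos in KSOM alone, and the 2 DMSO libraries from embryos in KSOM with 2% dimethyl sulfoxide (DMSO). The embryos of a group were pooled, 50 being collected for each group, and how many of these went into each library is not given. Nothing states that the replicates came from separate cultures, so p-values measure only the spread between these libraries.

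Methylation of lysine 4 on histone H3 (H3K4) marks active and poised regulatory DNA. The SET1 enzymes Setd1a and Setd1b make most of the trimethyl mark at active promoters, Kmt2a and Kmt2b (MLL1 and MLL2) act at a smaller group of CpG-rich promoters, and Kmt2c and Kmt2d (MLL3 and MLL4) make the monomethyl mark at enhancers. Each enzyme is weak alone and works in a complex with WDR5, RBBP5, ASH2L and DPY30. In mouse, the fertilised egg inherits unusually broad domains of H3K4 trimethylation from the oocyte, which are replaced by narrow promoter peaks around the activation of the embryonic genome at the 2-cell stage.

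Some of these proteins are recruited to DNA rich in unmethylated CG dinucleotides, through CXXC domains in KMT2A, KMT2B and the SET1 subunit CXXC1. Most start sites of the genes themselves were CG-rich. RefSeq windows of 300 bases, from 250 bases before to 50 after a start site on GRCm38.p6, were found for 7 of the 10 genes. The 4 sequences below are shown because they hold the most and the fewest CG dinucleotides among the members, and because they belong to the most abundant enzyme (Kmt2c), the least abundant enzyme (Kmt2a) and the most abundant subunit (Dpy30, at 2 of its 4 listed starts). They are written 5′ to 3′ on the strand of the gene, and capitals mark each CG.
Kmt2c, chr5:25498734-25499033, minus strand: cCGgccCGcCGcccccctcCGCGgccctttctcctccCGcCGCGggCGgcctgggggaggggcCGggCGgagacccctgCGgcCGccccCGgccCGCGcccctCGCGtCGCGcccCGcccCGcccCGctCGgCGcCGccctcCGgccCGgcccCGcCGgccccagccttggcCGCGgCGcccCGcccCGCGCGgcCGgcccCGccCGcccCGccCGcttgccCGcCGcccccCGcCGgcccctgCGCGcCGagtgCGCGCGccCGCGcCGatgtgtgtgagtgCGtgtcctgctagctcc
Kmt2a, chr9:44881240-44881539, minus strand: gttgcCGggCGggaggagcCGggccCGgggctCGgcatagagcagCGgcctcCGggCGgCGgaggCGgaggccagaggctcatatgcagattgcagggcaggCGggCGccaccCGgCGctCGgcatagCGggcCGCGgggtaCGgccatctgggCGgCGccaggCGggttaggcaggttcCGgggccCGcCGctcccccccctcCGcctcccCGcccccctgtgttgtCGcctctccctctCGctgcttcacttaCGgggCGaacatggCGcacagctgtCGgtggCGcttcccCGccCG
Dpy30, upstream start, chr17:74323895-74324194, minus strand: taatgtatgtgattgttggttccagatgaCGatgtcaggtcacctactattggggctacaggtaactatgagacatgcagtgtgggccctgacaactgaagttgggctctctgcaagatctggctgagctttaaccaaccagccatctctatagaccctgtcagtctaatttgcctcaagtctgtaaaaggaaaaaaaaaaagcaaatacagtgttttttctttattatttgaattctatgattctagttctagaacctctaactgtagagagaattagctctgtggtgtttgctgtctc
Dpy30, downstream start, chr17:74316162-74316461, minus strand: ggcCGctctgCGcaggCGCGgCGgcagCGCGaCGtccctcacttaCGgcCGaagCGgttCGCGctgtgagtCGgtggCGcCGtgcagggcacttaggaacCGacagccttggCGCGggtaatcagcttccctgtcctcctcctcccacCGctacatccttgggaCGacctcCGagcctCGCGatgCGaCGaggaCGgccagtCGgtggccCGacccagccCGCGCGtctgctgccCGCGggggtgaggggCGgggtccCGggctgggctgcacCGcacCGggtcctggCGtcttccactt

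The Kmt2c window held 56 CG dinucleotides at a GC content of 88.0%, and only 0.195% of the 32851 windows of all genes held as many. The windows of Kmt2a, Setd1a, Kmt2d, Wdr5 and Rbbp5 held 36, 35, 27, 22 and 16, against a median of 7 over all windows. The upstream Dpy30 window held 1 and the downstream one 39, and the other 2 Dpy30 windows, which overlap the downstream one, held 30 and 34. The TPM of a gene sums its transcripts, so the table does not show which Dpy30 start was used. CG content did not sort the genes by RNA level, since Kmt2a, the lowest of the 10, had a window close to that of Setd1a and richer than that of Wdr5. The promoter letters CCAAT, counted on both strands, were in the upstream Dpy30 window alone among them, and in 37.4% of all windows. TATAAA, also counted on both strands, with matches free to share bases with CCAAT, was in 0 of them and in 13.6% of all windows. These letters are a description of the windows and say nothing of whether a factor binds.

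**Figure D1:**
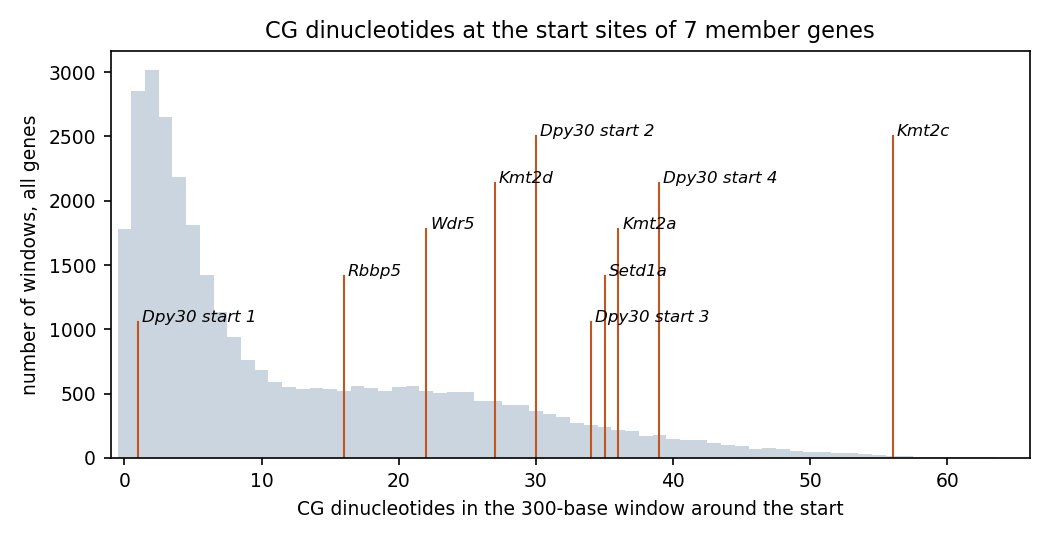
The x axis gives the number of CG dinucleotides in a 300-base window around a start site, the y axis the number of windows of all genes (grey bars), and the lines mark the 10 windows of the 7 member genes. All but the upstream Dpy30 start lie above the median of 7, and Kmt2c lies at 56.

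Among the enzymes 1 gene, Kmt2c, held most of the summed TPM. Kmt2c (ENSMUSG00000038056, GRCm38 chromosome 5 from 25271798 to 25498783, as annotated by GENCODE M21) was at 118.6 and 79.8 TPM in control embryos, against 158.8 and 90.0 TPM after DMSO. TPM values are levels that the authors scaled for transcript length and then to a fixed total for each library. This lets levels of different genes be set side by side, if transcripts of all lengths were covered alike. That was not tested in these amplified libraries, and the members' longest transcripts run from 789 bases (Dpy30) to 19823 bases (Kmt2d). Kmt2c made up 91.5% and 86.9% of the summed TPM of the 6 enzymes in control embryos, against 94.6% and 90.3% after DMSO. It exceeded Kmt2b, the next enzyme by the mean of the control libraries, 23.9-fold and 19.6-fold there, and in the DMSO libraries 40.4-fold and 28.6-fold. Only 1.30% of the 31-base words of its GENCODE M21 transcripts, counted on either strand, occur in those of other genes. The transcripts that the authors quantified against may differ from GENCODE M21. GENCODE M21 lists 8 Kmt2c transcripts of 612 to 14967 bases, and the gene's value is a sum over those that were quantified.

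The other 5 enzymes were near or below 5 TPM in every library. Kmt2b (ENSMUSG00000006307, chromosome 7 from 30568858 to 30588726), known for H3K4 trimethylation in the growing oocyte, was at 4.97 and 4.07 TPM in control embryos, against 3.93 and 3.14 TPM after DMSO. Setd1b (ENSMUSG00000038384, chromosome 5 from 123142193 to 123168629) was at 2.67 and 4.17 TPM against 3.54 and 4.34 TPM, in the same order. Kmt2d (ENSMUSG00000048154, chromosome 15 from 98831669 to 98871204), the paralog of Kmt2c, was at 2.54 and 1.90 TPM against 1.53 and 1.28 TPM. Control and DMSO values did not overlap for Kmt2b and Kmt2d, both lower in the DMSO libraries, and they overlapped for Setd1b. Of the 12038 genes whose mean reached 1 TPM, 69.8% did not overlap, and 38.7% were lower in the DMSO libraries without overlap.

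Setd1a and Kmt2a were the lowest. Setd1a (ENSMUSG00000042308, chromosome 7 from 127776670 to 127800122) was at 0.708 and 1.77 TPM in control embryos, and was listed at 0 in DMSO replicate 1 and at 0.740 TPM in DMSO replicate 2. Of its 31-base words 51.8% occur in transcripts of other genes, nearly all of them in the gene model Gm49388. Whether the transcripts that the authors quantified against held Gm49388 is not known, so the value of Setd1a is uncertain. Kmt2a (ENSMUSG00000002028, chromosome 9 from 44803355 to 44881296) was at 0.130 and 0.154 TPM in control embryos, and was listed at 8.89e-09 TPM in DMSO replicate 1 and at 0.221 TPM in DMSO replicate 2. Neither gene separated the groups. TPM values keep no depth, so whether a gene listed at 0 was absent or only unsampled is not known.

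**Figure D2:**
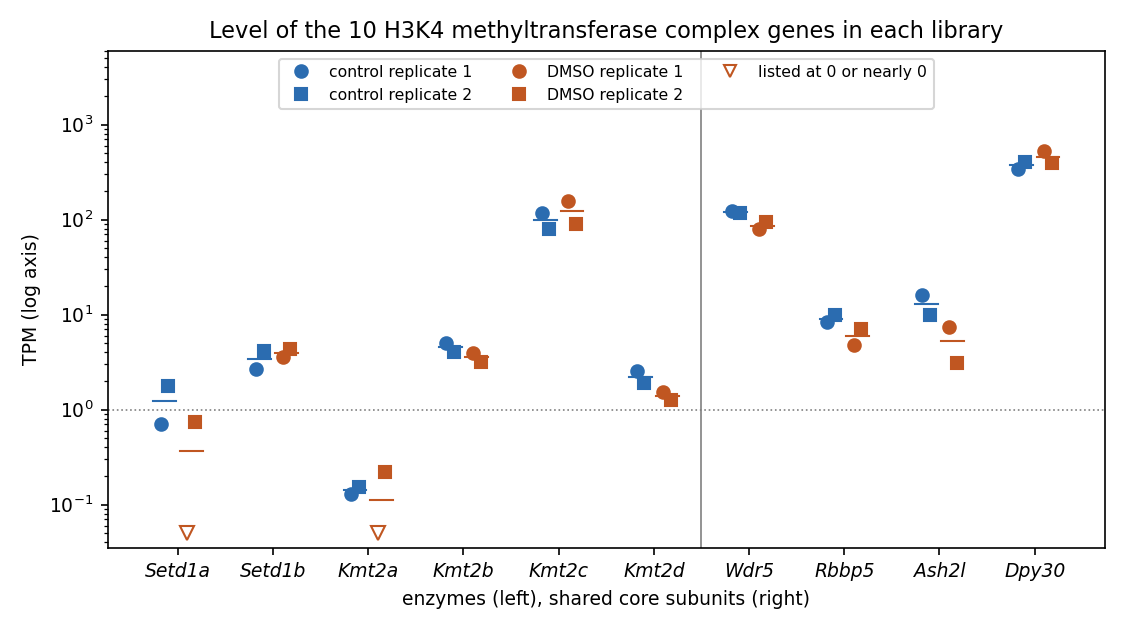
Each point is the TPM of 1 gene in 1 library on a log axis, with the enzymes on the left and the shared core subunits on the right, the short lines are group means, and the dotted line marks 1 TPM. Open triangles stand for the values of Setd1a and Kmt2a in DMSO replicate 1, listed at 0 and at 8.89e-09 TPM. Kmt2c, Wdr5 and Dpy30 lie at 79.4 TPM or above in every library, and all other members at 16.02 TPM or below.

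The shared core subunits were unequal in level too. Dpy30 (ENSMUSG00000024067, chromosome 17 from 74299474 to 74323944), a small protein that binds ASH2L as a dimer, was at 341 and 404 TPM in control embryos, against 524 and 399 TPM after DMSO. By mean TPM of the control libraries it ranked 325 among all genes of the table. Wdr5 (ENSMUSG00000026917, chromosome 2 from 27515157 to 27536535), the WD40 protein that contacts the enzymes, was at 122.5 and 116.0 TPM in control embryos, against 79.4 and 93.9 TPM after DMSO. The DMSO values of Wdr5 lay below both control values, as did those of 38.7% of the 12038 genes whose mean reached 1 TPM. Those of Dpy30 did not separate.

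The other 2 subunits were at a small part of these levels. Ash2l (ENSMUSG00000031575, chromosome 8 from 25815996 to 25847694), which with RBBP5 activates the enzymes, was at 16.02 and 10.02 TPM in control embryos, against 7.40 and 3.06 TPM after DMSO. Rbbp5 (ENSMUSG00000026439, chromosome 1 from 132477365 to 132505659) was at 8.27 and 9.79 TPM against 4.77 and 7.07 TPM, and 11.3% of its 31-base words occur in other genes. For both genes each DMSO library was below each control library, as for 38.7% of the 12038 genes whose mean reached 1 TPM. Dpy30 exceeded Rbbp5 41.3-fold in each of the control libraries, and 109.8-fold and 56.4-fold in DMSO replicates 1 and 2.

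Dpy30 held 69.9% and 74.9% of the summed TPM of the 4 core subunits in control embryos, against 85.1% and 79.3% after DMSO. For Wdr5 the shares were 25.1% and 21.5% in control embryos, against 12.9% and 18.7% after DMSO. The DMSO libraries thus lay above the control libraries in the share of Dpy30 and below them in that of Wdr5. These shares were computed over the members and were not tested.

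**Figure D3:**
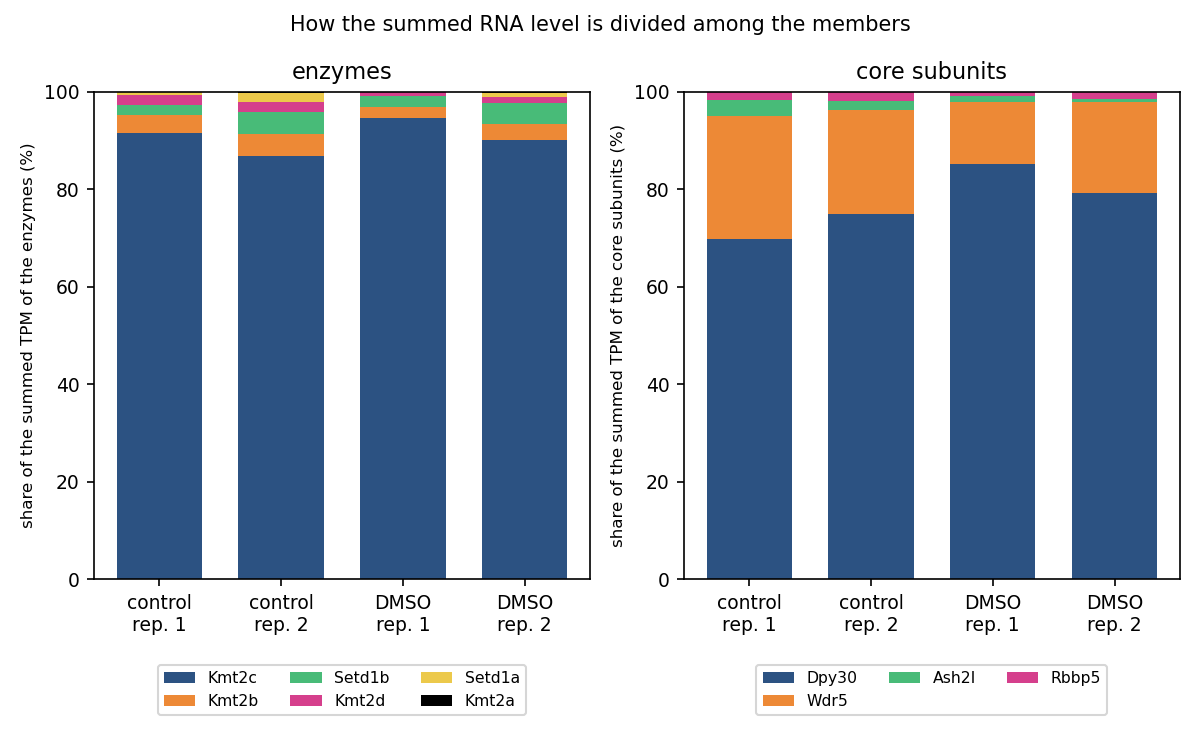
Stacked bars give the percent of the summed TPM held by each gene in each of the 4 libraries, for the 6 enzymes (left) and the 4 shared core subunits (right). Kmt2c holds 86.9% to 94.6% of the enzymes' sum, and Dpy30 69.9% to 85.1% of the subunits' sum.

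By mean TPM, the order in the control libraries was Dpy30, Wdr5, Kmt2c, Ash2l, Rbbp5, Kmt2b, Setd1b, Kmt2d, Setd1a and Kmt2a. The ranges of Wdr5 and Kmt2c overlapped, as did those of Kmt2b and Setd1b, and the other neighbours in this order were separate. In the DMSO libraries Kmt2c stood before Wdr5, Rbbp5 before Ash2l and Setd1b before Kmt2b, and each of these pairs overlapped. Ash2l and Setd1b, and Setd1a and Kmt2a, also overlapped there. The means ran from 373 ± 44.6 TPM (SD, n = 2) for Dpy30 to 0.142 ± 0.0167 TPM (SD, n = 2) for Kmt2a in control embryos.

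The comparison of DMSO-treated with control embryos asks whether culture with DMSO changed the RNA of these genes, and in 0 of the 8 that could be tested did it pass the threshold. The test was made on log2(TPM + 1) by limma, which fits a linear model per gene and draws its variance towards that of genes of like level, with Benjamini-Hochberg adjustment over the 12038 genes whose mean reached 1 TPM. Setd1a and Kmt2a fell below that mean and were not tested. Of all genes tested 20.5% were called at an adjusted p-value under 0.05, against 0 of the 8 members. At an unadjusted p-value under 0.05 there was 1 member, Ash2l, against 40.2% of all genes tested. No count-based tool was run, since the values are not counts. For 1 gene in 2 libraries a group, the smallest p of an exact permutation test is 0.333.

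The make-up of the libraries moved with the group. The 20 top genes by TPM accounted for 22.1% and 23.6% of the summed TPM in control embryos, against 29.4% and 35.1% after DMSO. Mitochondrially encoded genes held 10.8% and 12.4% in control embryos, against 15.3% and 21.7% after DMSO. The listed genes summed to 768174 and 780527 TPM in control embryos, against 772487 and 799166 TPM after DMSO. What these shares did to the values of the H3K4 genes was not tested.

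Markers were looked up in the same table and test to see what the libraries held. Of 12 markers of oocytes and 2-cell embryos all but Nlrp5, at 0.14 TPM or less in every library, were above 1 TPM in at least 1 library. Dppa3, a maternal protein gene, was at 11639 and 15346 TPM in control embryos, against 10828 and 15216 TPM after DMSO. Zscan4c, a gene of the 2-cell stage, was at 40.0 and 33.3 TPM against 77.3 and 51.8 TPM, while its paralog Zscan4d was at 8.62 and 8.28 TPM against 9.24 and 7.12 TPM. Of the 11 markers tested 7 had a log2 fold change above 0 and 4 below it, the latter being Dppa3, Zscan4d, Zp3 (-0.42) and Padi6 (-0.80). That of Zscan4d was -0.051, and turned to 0.032 after quantile normalization. Tcstv1, Tcstv3 and Bmp15 were called higher in the DMSO libraries. Of 12 cumulus and granulosa cell markers 9 were below 1 TPM in every library, among them Fshr and Foxl2, and Inhba was at 0 in all. Their summed TPM was 40.6 and 32.2 in control embryos, against 12.7 and 19.5 after DMSO, of which Amhr2 alone held 36.8, 29.6, 8.29 and 16.5. Without Amhr2 the sums overlapped, at 3.76 and 2.52 TPM against 4.44 and 2.999 TPM. Of 6 oviduct epithelium markers Foxj1 was below 1 TPM in every library. Their sums were 135.0, 121.0, 73.5 and 100.4 TPM in the same order, of which Epcam held 103.6, 92.6, 36.1 and 55.9. Without Epcam the sums were higher after DMSO, at 37.4 and 44.5 TPM against 31.3 and 28.4 TPM, and Ovgp1, the oviduct-specific glycoprotein gene, was at 17.9 and 19.5 TPM in control embryos, against 26.2 and 33.2 TPM after DMSO (limma adjusted p = 0.144). Of 6 blood markers 4 were below 1 TPM in every library, and the most abundant, Hba-a2, was at 6.94 and 2.51 TPM in control embryos, against 6.90 and 11.7 TPM after DMSO, of sums of 11.02, 4.36, 10.79 and 16.3 TPM. Amhr2 and Epcam, which embryos may also express, were called lower in the DMSO libraries (limma adjusted p = 0.0442 and 0.0466). Both calls were lost with a pseudocount of 0.1, without a variance trend and under both other scalings, with limma adjusted p-values from 0.053 to 0.103. The part of any of these markers in the values of the H3K4 genes was not tested, and in pooled embryos fewer contributing cells and less RNA per cell cannot be told apart.

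Ash2l had the largest difference of the 8, with a log2 fold change of -1.23 (standard error, SE, 0.45, 95% interval -2.30 to -0.16, limma adjusted p = 0.0912). With a block on replicate number, though nothing in the labels pairs the libraries, limma called 42.6% of all genes tested, and Ash2l among them (adjusted p = 0.0126). Its log2 fold change lay at the 13.6th percentile of all genes tested. It ran from -1.75 to -0.71 when single libraries were left out. Without DMSO replicate 2 it was -0.71, and Rbbp5, at -0.79, then had the larger difference. The other core subunits that were lower had log2 fold changes of -0.55 for Rbbp5 (95% interval -1.35 to 0.24, limma adjusted p = 0.247) and -0.46 for Wdr5 (95% interval -1.06 to 0.14, limma adjusted p = 0.209). Dpy30 was on the other side of 0, at 0.30 (95% interval -0.34 to 0.93, limma adjusted p = 0.423).

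The 4 enzymes tested had smaller differences than Ash2l, on a scale that understates changes of low genes. With no filter on low values, the log2 fold changes of Setd1a and Kmt2a, which were not tested in the main fit, were -0.72 and -0.047. Kmt2c was at a log2 fold change of 0.30 (95% interval -0.58 to 1.17, limma adjusted p = 0.564) and Kmt2d at -0.42 (95% interval -1.23 to 0.40, limma adjusted p = 0.382). Kmt2b was at -0.28 (95% interval -1.07 to 0.50, limma adjusted p = 0.538) and Setd1b at 0.18 (95% interval -0.66 to 1.01, limma adjusted p = 0.724). Each of these intervals includes 0 and also reaches past a 2-fold change in one direction. At their standard errors, the 8 genes would have been called from an absolute log2 fold change of 0.89 (Wdr5) to 1.59 (Ash2l) upwards.

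Of the 8 genes tested, 5 were lower after DMSO and 3 higher, and the median log2 fold change was -0.35, while 53.2% of all genes tested were lower, with a median of -0.09. The members' median was -0.23 after quantile normalization and -0.22 without control replicate 1, where 6 were lower and 2 higher, as was also so without DMSO replicate 1. Over all genes tested the median was 0.0052 after quantile normalization, with 49.8% lower, and -0.022 without control replicate 1. The median absolute log2 fold change was 0.36 for the 8 genes and 0.71 for all genes tested. Without DMSO replicate 2 these values were 0.54 and 0.84. The groups did not overlap for 5 of the 8 genes (Kmt2b, Kmt2d, Wdr5, Rbbp5 and Ash2l), all lower after DMSO, against 69.8% of all genes tested without overlap and 38.7% lower without overlap. For 0 of the 8 genes were the DMSO values higher without overlap, against 31.1% of all genes tested. These counts describe a short list and were not tested as a set.

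Scaling and single libraries moved the smaller values. With quantile normalization the log2 fold changes of Dpy30 and Kmt2c were 0.55 and 0.57 and that of Wdr5 was -0.17. With a correction for transcript length those of Kmt2c and Kmt2d were 0.07 and -0.70. Without DMSO replicate 1 that of Kmt2c was -0.11, that of Rbbp5 -0.31 and that of Dpy30 0.10. Without DMSO replicate 2 that of Ash2l was -0.71, that of Kmt2b -0.16, that of Dpy30 0.49 and that of Kmt2c 0.70. Without control replicate 1 that of Setd1b was -0.070, that of Dpy30 0.18, that of Kmt2b -0.17, that of Kmt2d -0.27 and that of Kmt2c 0.58, and without control replicate 2 that of Setd1b was 0.42 and that of Kmt2c 0.012. Setd1b was at 0.29 without DMSO replicate 1 and at 0.06 without DMSO replicate 2, and also at 0.06 with the length correction.

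**Figure D4:**
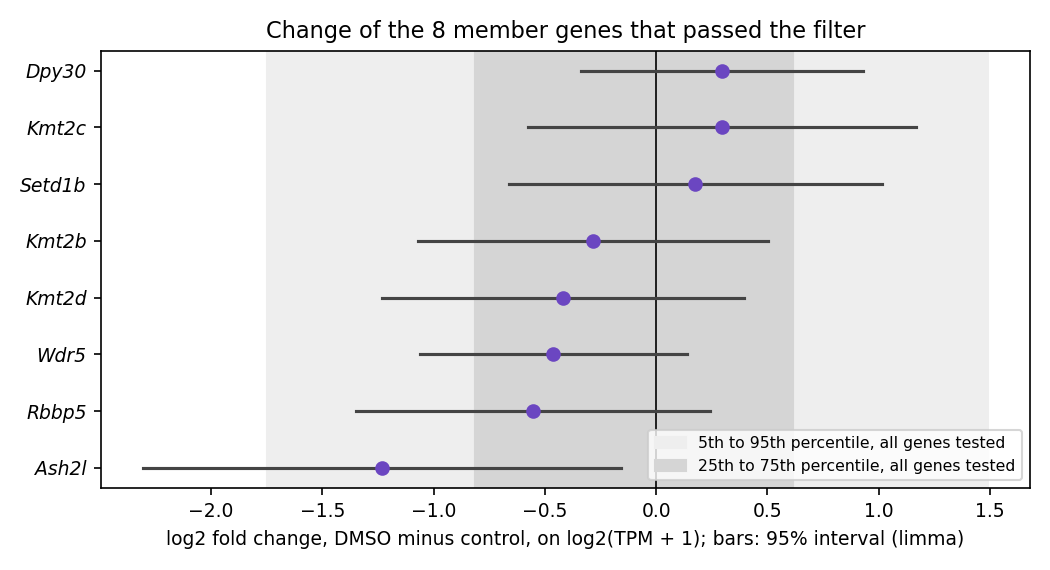
Points are log2 fold changes (DMSO minus control, on log2(TPM + 1)) of the 8 member genes tested, bars are 95% intervals from limma, and the grey bands hold the central 50% and 90% of the 12038 genes tested. The points of all genes but Ash2l lie within the inner band, and only the interval of Ash2l, at -1.23, leaves out 0.

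The paralogous enzymes were also compared with each other in each library, as log2 of (TPM + 1) of one over (TPM + 1) of the other. For Kmt2c over Kmt2d this log2 ratio was 5.08 and 4.80 in control embryos, against 5.98 and 5.32 after DMSO, so the DMSO libraries were both higher, by 0.71 on average, and by 0.38 without DMSO replicate 1. For Setd1a over Setd1b it was -1.10 and -0.90 in control embryos, against -2.18 and -1.62 after DMSO, where Setd1a was listed at 0 in DMSO replicate 1. The difference of -0.90 was -2.31 with a pseudocount of 0.1 in place of 1. Both pairs gave an exact permutation p = 0.333 (two-sided, adjusted p = 0.5 over the 3 pairs), the smallest that 4 libraries allow. For Kmt2a over Kmt2b the log2 ratios overlapped (-2.40 and -2.14 against -2.30 and -1.76, exact permutation p = 0.667, also after adjustment), and Kmt2a was too low for this ratio to carry weight.

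The genes whose levels over the 4 libraries were closest to those of Ash2l and Rbbp5, which had the largest absolute log2 fold changes of the 8 members tested on the deposited values, were found by Euclidean distance of log2(TPM + 1) among all genes tested. For Ash2l they were the gene models Gm6365, Gm8624 and Gm9985, at distances of 0.34, 0.42 and 0.47. For Rbbp5 they were Nisch, Theg and Gm10778, at distances of 0.17, 0.17 and 0.18. With 4 libraries such a likeness is of level and group difference only.

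Of the other genes of the H3K4 pathway, listed by role, 44 of 47 had a row and 40 were tested. limma called 6 of the 40, or 15.0%, at an adjusted p-value under 0.05, of which 5 were lower after DMSO and 1 was higher. Over all genes tested 14.1% were called lower and 6.42% higher, which was 1697 and 773 genes, against 1121 and 1076 after quantile normalization and 1361 and 871 after median-ratio scaling. The 6 were in 2 of the 7 lists, the PAF1 complex with H2B ubiquitylation and the readers of H3K4 methylation. These are the longest lists, with 10 and 12 genes tested, while each of the others had 2 to 6. Other settings added calls: with quantile normalization limma called the demethylase Kdm1b (adjusted p = 0.0371), and with a filter at a mean of 5 TPM it called Kdm1a, Kdm1b and Wac, an H2B ubiquitylation cofactor (adjusted p = 0.0431, 0.0445 and 0.0445), so that 9 of the 30 genes then tested were called, against 32.8% of all genes tested with that filter. Cdc73, Ube2b, Chd1 and Spin1 are also in the list of differentially expressed genes that the study made from the same libraries, so their directions are not independent evidence.

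The subunits listed by kind of complex, though a subunit may serve more than 1 kind, had 0 of 8 genes called by limma. Of these, 2 were at an unadjusted p-value under 0.05, against 20.5% called and 40.2% under 0.05 for all genes tested. Cxxc1, the CG-binding subunit of the SET1 complexes, was the most abundant of its list, at 6.67 and 7.38 TPM in control embryos, against 3.68 and 2.70 TPM after DMSO. Its log2 fold change was -0.95 (SE 0.33, limma adjusted p = 0.0803). Psip1, a chromatin-binding partner of menin in the MLL1 and MLL2 complexes, was at 20.8 and 24.0 TPM against 24.1 and 25.2 TPM (log2 fold change 0.13, limma adjusted p = 0.729). Ncoa6, a coactivator subunit of the MLL3 and MLL4 complexes, was at 79.8 and 89.4 TPM against 84.6 and 103.9 TPM (log2 fold change 0.15, limma adjusted p = 0.686). After quantile normalization these log2 fold changes were 0.33 for Psip1 and 0.44 for Ncoa6. That of Psip1 was 0.035 without control replicate 1 and 0.23 without control replicate 2, and that of Ncoa6 was 0.0022 without DMSO replicate 2, 0.30 without DMSO replicate 1, 0.069 without control replicate 1, 0.23 without control replicate 2 and 0.070 with length correction. Hcfc1, the second of the 2 and named here after its values were seen, is a cofactor that tethers the enzymes to transcription factors, and was at 23.0 and 23.1 TPM against 12.9 and 13.2 TPM (log2 fold change -0.78, limma adjusted p = 0.0841). Of the 4 genes listed for the MLL1 and MLL2 complexes, Hcfc1 was the 1 on the lower side and 3 were on the higher. Besides Psip1 these were Men1 (0.79, limma adjusted p = 0.205) and Hcfc2 (0.74, limma adjusted p = 0.143), also named after their values were seen.

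The demethylases that remove H3K4 methylation were 6, 4 on the lower side and 2 on the higher, and none overlapped between the groups, against 69.8% of all genes tested without overlap. limma called 0 of them, with 3 at an unadjusted p-value under 0.05, against 40.2% of all genes tested. Kdm5a, the most abundant, was at 114.2 and 94.8 TPM in control embryos, against 77.6 and 78.4 TPM after DMSO (log2 fold change -0.41, limma adjusted p = 0.257), and its log2 fold change was -0.13 after quantile normalization. Kdm1a and Kdm1b, the 2 flavin-dependent demethylases, are named here after their values were seen. Kdm1a was at 44.9 and 55.6 TPM against 29.1 and 21.1 TPM (log2 fold change -0.98, limma adjusted p = 0.0588). Kdm1b, which removes H3K4 methylation in the growing oocyte, was at 25.1 and 19.7 TPM against 59.0 and 38.0 TPM (log2 fold change 1.06, limma adjusted p = 0.061). The 2 genes lay in opposite directions. Other SET domain proteins linked to H3K4 had 0 of 4 called by limma and 0 at an unadjusted p-value under 0.05, against 20.5% and 40.2% of all genes tested. Their most abundant gene, Smyd3, was at 85.4 and 71.8 TPM in control embryos, against 73.7 and 59.2 TPM after DMSO (log2 fold change -0.24, limma adjusted p = 0.522), and this value was 0.048 after quantile normalization, -0.12 without control replicate 1, -0.086 without DMSO replicate 2, -0.37 without control replicate 2 and -0.40 without DMSO replicate 1.

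The PAF1 complex travels with RNA polymerase II and promotes ubiquitylation of histone H2B, a mark on which H3K4 methylation by SET1 complexes depends. In this list 8 of 10 genes were on the lower side, with a median log2 fold change of -0.49, against 53.2% and -0.09 over all genes tested. After quantile normalization 7 of the 10 were lower, with a median of -0.28, against 49.8% and 0.0052 over all genes tested. limma called 3 of the 10, all lower, against 14.1% called lower over all genes tested. Wdr61, a PAF1 complex subunit, fell from 9.03 and 15.99 TPM to 2.84 and 1.89 TPM (log2 fold change -1.97, SE 0.39, limma adjusted p = 0.025), and 32.9% of its 31-base words are shared with other genes. Cdc73, another subunit, fell from 16.5 and 18.4 TPM to 7.69 and 5.84 TPM (log2 fold change -1.26, SE 0.30, limma adjusted p = 0.0366). Ube2b, an H2B ubiquitin-conjugating enzyme, fell from 78.7 and 113.8 TPM to 36.1 and 47.5 TPM (log2 fold change -1.17, limma adjusted p = 0.0421). Paf1 itself, the most abundant of the list, was at 335 and 259 TPM in control embryos, against 287 and 253 TPM after DMSO (log2 fold change -0.13, limma adjusted p = 0.73), and its sign turned, to 0.083, after quantile normalization and, to 0.057, without control replicate 1.

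Of the 12 readers, proteins that bind H3K4 methylation, 7 were on the lower side and 5 on the higher, with a median log2 fold change of -0.13. The sides held 6 and 6 after quantile normalization (median -0.033) and without control replicate 1 (median -0.065). They held 8 and 4 without DMSO replicate 1 (median -0.074). In the main fit limma called 3 of the 12, against 20.5% over all genes tested. Chd1, a chromatin remodeler that binds the trimethyl mark, fell from 20.8 and 39.5 TPM to 11.1 and 4.37 TPM (log2 fold change -1.88, SE 0.49, limma adjusted p = 0.0422). Bptf, the largest subunit of the NURF remodeler, fell from 119.2 and 116.0 TPM to 46.5 and 64.9 TPM (log2 fold change -1.08, SE 0.28, limma adjusted p = 0.0404). Spin1, a Tudor domain reader known from oocyte maturation, rose from 182.5 and 119.8 TPM to 546.5 and 492.2 TPM (log2 fold change 1.80, SE 0.29, limma adjusted p = 0.0203). Of the 6 calls in these 2 lists, those of Wdr61, Cdc73 and Spin1 held with a pseudocount of 0.1, without a variance trend and under both other scalings. Those of Ube2b and Chd1 were lost in each of these 4, with adjusted p-values from 0.0502 to 0.095, and that of Bptf in 3 of them. Without control replicate 1, control replicate 2 or DMSO replicate 1, and with no filter on low values, 0 of the 6 were called, as were 0 genes of the whole table, so these fits do not set the 6 apart from other genes. Without DMSO replicate 2 Spin1 and Bptf alone of the 6 were called, against 15.6% of all genes tested. Their directions were the same in all of these fits.

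**Figure D5:**
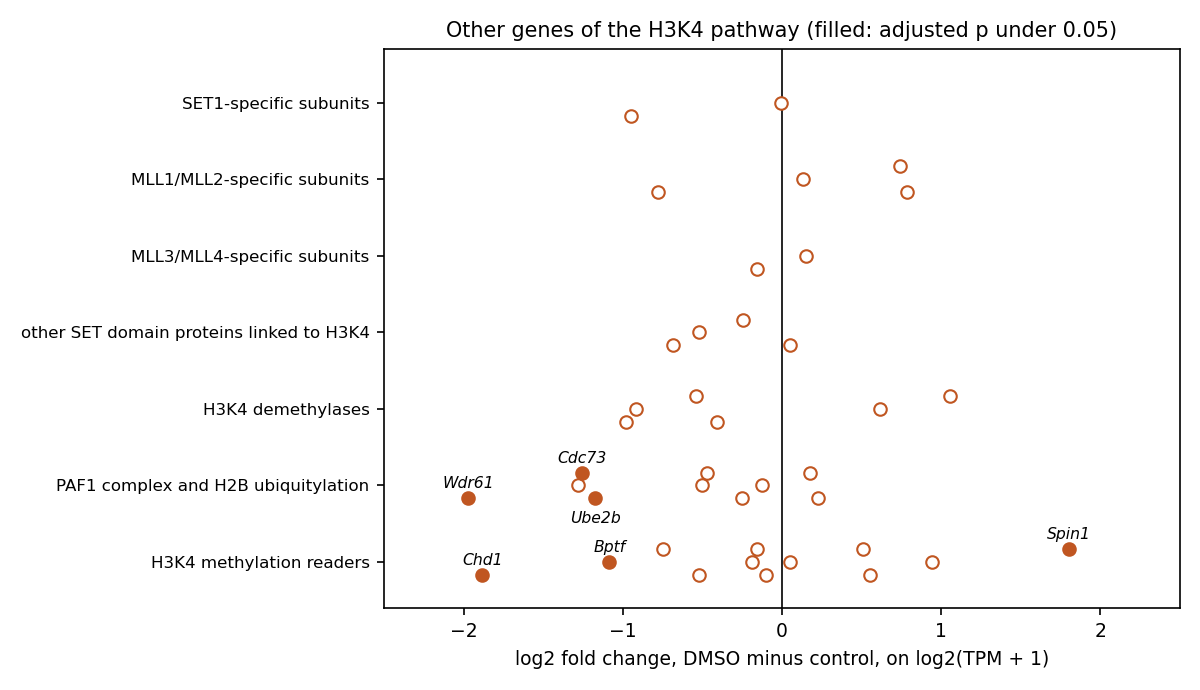
Each circle is the log2 fold change (DMSO minus control, on log2(TPM + 1)) of 1 of the 40 other pathway genes tested, in rows by role, and filled circles passed an adjusted p-value of 0.05. The 6 filled circles lie in the 2 lowest rows, 5 of them on the left of 0 and Spin1 on the right at 1.80.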

How the data were processed

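Libraries were made from pooled 2-cell embryos by amplification of low-input cDNA (SMARTer). The authors quantified reads with kallisto against Ensembl transcripts (GRCm38), summed transcripts per gene with tximport and deposited TPM values, which keep no depth. Counts were not used, so the authors' DESeq2 test was replaced by limma 3.58.1 in R 4.3.3 (lmFit, eBayes with a variance trend, no replicate block) on log2(TPM + 1) of genes whose mean reached 1 TPM. Fold changes are on that scale, which understates changes of low genes. Every column of per-sample values was used, with groups from the sample labels. GENCODE M21 (GRCm38) named 29589 genes, and RefSeq (GRCm38.p6) gave the start windows. The members and lists were chosen with earlier results of these data known. Genes named outside the members were those called and the most abundant of each list, with exceptions stated. Simulated data had 200 of 12038 genes changed by 1, 2 or 3 (log2). The DMSO against control fit recovered 0%, 13.0% and 91.5% of these, with 0, 7 and 12 false calls. Far fewer genes were changed there than the 2470 called in the data. The adjustment was therefore stricter, and these percentages do not carry over to the data. Python 3.11.15 was used for other steps.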

Additional observations from a re-analysis of the deposited data

How the results depend on the processing

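The 13 alternatives tried were a pseudocount of 0.1, no filter, a filter at a mean of 5 TPM (which dropped Setd1b, Kmt2b and Kmt2d), no variance trend, median-ratio scaling, quantile normalization, a correction for transcript length, the replicate block alone and with that correction, and leaving out each library, where the lone library is assumed to vary like the other group. Of the member genes 0 were called in each but those with the block. Genes called over the whole table numbered 2470, against 0 with no filter on low values and 0 to 1883 with a library left out. Other pathway genes called numbered 6, against 0 with no filter, 3 without a variance trend, 3 with median-ratio scaling, 4 with quantile normalization or a pseudocount of 0.1, 9 with the filter at 5 TPM, 6 with length correction, and 0 to 2 with a library left out. Both groups have replicates 1 and 2. After subtraction of group means, libraries with 1 number correlated (r = 0.35 across the 12038 genes, which are not independent), but nothing in the labels pairs them. With the replicate block 5132 genes were called, 1 member (Ash2l, limma adjusted p = 0.0126) and 12 other pathway genes (the 6 with Cxxc1, Hcfc1, Kdm1a, Kdm1b, Kdm5c and Wac), and with length correction and the block 4782, 1 (Ash2l, adjusted p = 0.0191) and the same 12. Values of some member and other pathway genes turned sign. With quantile normalization these were Paf1 (0.083), Smyd3 (0.048) and Phf8 (0.087), and with median-ratio scaling Wdr82 (0.019). With a library left out they were Setd1b (-0.070 to 0.42), Kmt2c (-0.11 to 0.70) and Paf1 (-0.31 to 0.057). Smyd2, Rnf20, Rnf40, Rtf1, Kdm6a, Taf3, Ing3, Phf8, Phf13 and Wdr82 also turned with a library left out. Of the markers, Zscan4d turned from -0.051 to 0.032 with quantile normalization. The difference in log2 ratio of Kmt2a over Kmt2b turned from 0.24 to -0.084 with a pseudocount of 0.1, and ran from -0.034 to 0.51 with a library left out, as did those of Kmt2c over Kmt2d from 0.38 to 1.04 and of Setd1a over Setd1b from -1.18 to -0.62. The cause was not tested. Depth is unknown, so no detection floor was set.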

Other observations

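Of the other pathway genes 4 had a row but a mean below 1 TPM and were not tested. The methyltransferase genes Setd7 and Smyd1, linked to H3K4 outside these complexes, were at 0.89 TPM or less and at 0.51 TPM or less in the 4 libraries. Bod1 was listed at 0 in 3 of them and at 0.14 TPM in DMSO replicate 2. Pagr1a was at 0 without DMSO and at 0.058 and 0.11 TPM with it, and shares 93.2% of its 31-base words with other genes. Bod1l, Paxip1 and Ube2a were not analysed here.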
